A study of Homo sapiens with 6 samples.

Results

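The squamous differentiation and cornified envelope genes followed here are 10 of the 66351 gene models measured by RNA-Seq in SAS-Fucci cells, human cells from a tongue squamous cell carcinoma into which a fluorescent reporter of the cell cycle was introduced. They are IVL, SPRR1A, SPRR1B and SPRR3, which encode envelope precursors, TGM1, which encodes a cross-linking enzyme, the protease inhibitor genes CSTA and SLPI, and KRT13, SFN and MAB21L4. The first 9 are standard markers of squamous differentiation, and MAB21L4 was added because of its large fall 48 h after knockdown. The members were chosen by their function, with earlier results of these data known, and MAB21L4 by its measured fold change at 48 h. In that comparison all changes of members are therefore given as a description without a p-value. MAB21L4 is given no p-value in any comparison, and its call at 48 h enters only counts given as a description.

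The study knocked down IGFBP3, the gene of a binding protein for insulin-like growth factors, and asked how the gene expression profile changed. IGFBP3 siRNA #1 was transfected for 48 h (siIGFBP3-48h, 2 libraries) or for 72 h (siIGFBP3-72h, 2 libraries), and 2 further libraries came from cells that received a non-targeted control siRNA (siCont), and all cells were transfected with the same lipid reagent. For the longer time the culture medium was renewed at 48 h, so that time and medium cannot be told apart. The same control libraries were compared with both times, and the time at which they were harvested is not given in the sources used here. Differences from control may therefore also hold culture time and renewed medium, which cannot be told apart from the knockdown. It is also not stated whether the libraries that form a group were grown as separate cultures. The p-values below therefore measure only the spread between these libraries, which may be technical, and a single siRNA sequence was used, so its effects beyond IGFBP3 cannot be told apart from those of the knockdown.

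In a stratified squamous epithelium, cells that leave the basal layer stop dividing, change their keratins and build an insoluble protein shell, the cornified envelope, beneath the plasma membrane. Involucrin and the small proline-rich (SPRR) proteins are laid down and joined by transglutaminases, and protease inhibitors such as cystatin A are built in or secreted around them. In the mouth, most of the surface does not fully cornify, and KRT13 marks its suprabasal cells, while IVL and the SPRR genes lie together in the epidermal differentiation complex.

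The 4 precursor genes lie within 124.4 kb of chromosome 1 of GRCh38, from 152908546 to 153032900. Promoter sequence was at hand for 6 of the 10 members (IVL, SPRR1A, SPRR1B, SPRR3, SFN and MAB21L4) in RefSeq on GRCh38.p14, and each window was searched for TGANTCA, the word bound by AP-1 factors, which are long known to act on the IVL promoter. The word reads the same on both strands. For MAB21L4, 2 start sites are annotated. All 6 members held the word in at least 1 window, in 6 of 7 windows, whereas 7.71% of 35116 promoter windows of 300 bases held it. The word AACNGGTT of Grainyhead-like (GRHL) factors, searched on both strands, was in none of the member windows and in 1.73% of all windows, so no match of one word overlapped the other. These matches describe the sequence only. The share among members is no test, since AP-1 was already known to act on IVL and the SPRR genes lie together. The sequences of the 2 members with the largest falls at 48 h among those above the filter on low values (IVL and MAB21L4) are shown as the 250 bases before the start site, 5′ to 3′ on the strand of the gene, with the AP-1 word in capitals. The first is on the plus strand at chr1:152908296-152908545 and the second on the minus strand at chr2:240896157-240896406.
IVL: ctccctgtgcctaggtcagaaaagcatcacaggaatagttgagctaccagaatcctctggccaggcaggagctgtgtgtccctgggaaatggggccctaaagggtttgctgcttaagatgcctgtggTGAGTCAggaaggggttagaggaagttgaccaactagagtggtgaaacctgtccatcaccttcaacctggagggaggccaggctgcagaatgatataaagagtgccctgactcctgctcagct
MAB21L4: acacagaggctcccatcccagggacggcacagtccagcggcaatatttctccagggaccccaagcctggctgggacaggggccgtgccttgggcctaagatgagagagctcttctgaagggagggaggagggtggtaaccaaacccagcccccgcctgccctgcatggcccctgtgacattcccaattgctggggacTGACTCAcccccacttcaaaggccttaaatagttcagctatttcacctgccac

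In IVL the word began 123 bases before the start site, and in MAB21L4 it began 53 bases before the upstream one of its start sites. The words of the other members are shown with 12 flanking bases on each side, so that the spelling of the variable base can be compared. SPRR1B held a pair of words, beginning 141 and 111 bases before its start site, and the words of SPRR1A, SPRR3 and SFN began 108, 170 and 170 bases before theirs.
SPRR1A: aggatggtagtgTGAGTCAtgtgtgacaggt
SPRR3: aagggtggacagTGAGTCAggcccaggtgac
SPRR1B, first word: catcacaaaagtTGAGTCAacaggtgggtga
SPRR1B, second word: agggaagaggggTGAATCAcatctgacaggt
SFN: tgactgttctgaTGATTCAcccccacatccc

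IVL and the SPRR genes share TGAGTCA, SFN has TGATTCA and MAB21L4 has TGACTCA, which is TGAGTCA read on the other strand.

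The values are FPKM, that is, fragments assigned to a gene scaled by the length of its model and by the total assigned in the library, and the reads behind them were recovered from their steps. The libraries held 17430648 to 21579852 assigned reads. IGFBP3 itself had an FPKM of 0.261 and 0.258 at 48 h and 1.52 and 3.25 at 72 h, against 24.7 and 23.1 in the control libraries. The log2 fold change of FPKM + 1 was −4.30 (SE 0.22, limma adjusted p = 0.000549) at 48 h and −2.93 (SE 0.22, adjusted p = 0.00218) at 72 h. It was 1.38 higher at 72 h than at 48 h (limma adjusted p = 0.0327). All 7 squamous epithelial markers examined reached 1 FPKM, and their summed FPKM was 313 to 326 at 48 h and 537 to 543 at 72 h, against 583 to 677 in control. The keratin markers KRT5, KRT14, KRT6A and KRT17 lay below both control libraries at 48 h. Of the leukocyte markers 3 of 5 were at 0 in every library, with a summed FPKM of at most 0.015, and of the melanocyte markers 2 of 4 were at 0. No endothelial marker reached 1 FPKM, and among the fibroblast markers only COL1A1 did, at 1.28. The part of these marker levels in the results was not tested. In bulk RNA, fewer cells that express a gene and less of its RNA per cell cannot be told apart.

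Of the 10 members, 5 reached an FPKM of 1 in at least 2 libraries and entered the test across 11214 named genes, and 5 did not. Ordered by their mean in control, the levels per length were 311 ± 33.3 FPKM for SFN, 40.7 ± 1.08 for CSTA, 11.1 ± 3.39 for SLPI, 3.098 ± 0.133 for MAB21L4 and 2.804 ± 0.106 for IVL (SD, n = 2). The ranges of MAB21L4 and IVL did not overlap in control, but the gene model of MAB21L4 is 1.49 times as long as its longest reference transcript, so the order of these neighbours rests on the model. TGM1, SPRR1B and KRT13 followed, all below 1 FPKM. SPRR1A and SPRR3 were listed at 0 in all 6 libraries, as were 10 of 13 mitochondrial mRNAs that every cell uses. A listing at 0 alone therefore cannot show whether SPRR1A and SPRR3 were absent. The SPRR1A model also covers only 270 bases that begin 1150 bases after the RefSeq start site, and the SPRR3 model is 2.03 times the longest reference transcript.

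Among the envelope precursors, IVL was the member with measurable RNA, and it was lower in all 4 knockdown libraries. Involucrin is one of the first proteins laid down in the envelope. IVL (ENSG00000163207, chromosome 1, 152908546 to 152911886, plus strand) had an FPKM of 0.396 and 0.890 at 48 h, 1.06 and 1.14 at 72 h, and 2.73 and 2.88 in control. These values rest on 15 and 39 reads at 48 h, 47 and 53 reads at 72 h, and 116 and 108 reads in control. Both knockdown groups lay below both control libraries, and the 72 h libraries lay above the 48 h libraries. The mean was 22.9% of control at 48 h and 39.2% at 72 h. On the log2(FPKM + 1) scale, which understates changes of genes this low, the difference from control was −1.23 (SE 0.15) at 48 h. At 72 h it was −0.86 (SE 0.15, limma adjusted p = 0.0172), and IVL was called lower. That call was lost when either 72 h library or either control library was left out, with a limma adjusted p of up to 0.0821, and when no filter was applied to low values, with an adjusted p of 0.0895. Between the times the difference was 0.37 at 72 h relative to 48 h (95% interval 0.02 to 0.72, limma adjusted p = 0.183), which did not pass the threshold of 0.05 after adjustment.

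The SPRR members gave few or no reads. SPRR1B had 0 and 2 reads at 48 h and 1 and 0 reads at 72 h, against 4 and 3 reads in control, so that the control libraries lay above every knockdown library by 1 to 4 reads. With voom, which weights log counts by their precision before the limma fit, on the recovered reads and without a filter, a setting chosen after the data had been seen, the log2 difference of SPRR1B at 72 h was −2.39 (limma adjusted p = 0.123). At this depth no change of SPRR1B was detectable, and none can be given for SPRR1A or SPRR3.

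MAB21L4, a gene of the MAB21 family expressed in differentiating squamous epithelium, had the lowest values relative to control among the members above the filter. MAB21L4 (ENSG00000172478, chromosome 2, 240886048 to 240896889, minus strand) had an FPKM of 0.114 and 0.131 at 48 h, 0.679 and 1.04 at 72 h, and 3.192 and 3.004 in control. The reads were 6 and 8 at 48 h, 42 and 67 at 72 h, and 189 and 157 in control. No groups overlapped, and the 72 h libraries stood between the other groups. The 48 h mean was 3.95% of control and the 72 h mean was 27.7%. The log2 difference of FPKM + 1 was −1.87 (SE 0.12) at 48 h and −1.15 (SE 0.12) at 72 h relative to control, and 0.72 (SE 0.12) at 72 h relative to 48 h. The pseudocount of 1 shrinks the 48 h value most, and on recovered reads with voom and no filter it was −4.57 (SE 0.41). The fall at 48 h chose the gene, and no test is given for any of these values.

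**Figure D1:**
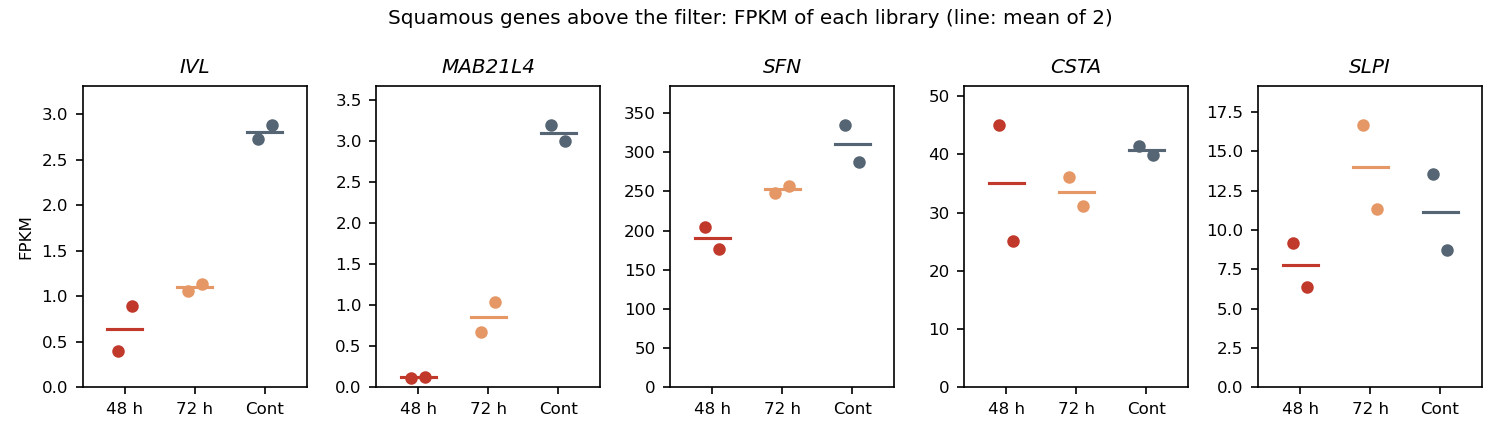
FPKM of each library for the 5 members above the filter, with 1 panel per gene and its own axis from 0. Points are libraries at 48 h, at 72 h and in control, and lines are the means of 2. IVL and MAB21L4 are below control in all 4 knockdown libraries, SFN follows with a smaller drop, and the groups of CSTA and SLPI overlap at 48 h.

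SFN, which encodes 14-3-3 sigma, an epithelial protein that holds cells at cell-cycle checkpoints and binds keratins, was the most abundant member. SFN (chromosome 1, 26863149 to 26864456, plus strand) had an FPKM of 204 and 176 at 48 h, 249 and 257 at 72 h, and 334 and 287 in control. With 4693 to 8637 reads in each library, its values rest on far more reads than those of IVL or MAB21L4. The groups did not overlap, with 48 h lowest and 72 h between. The mean was 61.2% of control at 48 h and 81.4% at 72 h, and the log2 difference at 48 h was −0.70 (SE 0.11). At 72 h it was −0.29 (95% interval −0.55 to −0.03, limma adjusted p = 0.134), and it was 0.41 higher at 72 h than at 48 h (95% interval 0.15 to 0.67, adjusted p = 0.0816). Neither passed the threshold. With voom on the recovered reads the difference between the times passed, at a limma adjusted p of 0.0275, and that from control at 72 h did so only without the filter, at 0.0419.

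The protease inhibitor members CSTA and SLPI were not called by limma with 1 mean per group. CSTA encodes cystatin A, a cysteine protease inhibitor that is also cross-linked into the envelope. CSTA (chromosome 3, 122325248 to 122341969, plus strand) had an FPKM of 45.0 and 25.1 at 48 h, 36.1 and 31.1 at 72 h, and 41.5 and 40.0 in control. The 48 h libraries spanned all others, while both 72 h libraries lay below both control libraries. The log2 difference from control was −0.27 (SE 0.24) at 48 h and −0.28 (SE 0.24, limma adjusted p = 0.492) at 72 h, with a 95% interval of −0.85 to 0.30 at 72 h. Between the times it was −0.01 (95% interval −0.58 to 0.57, limma adjusted p = 0.990), a value whose sign turned with the scaling and with the libraries used. Without the first 48 h library the difference between 48 h and control was −0.68, and without the second it was 0.14.

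SLPI, the secretory leukocyte protease inhibitor of mucosal surfaces, also varied within groups. SLPI (chromosome 20, 45252239 to 45254564, minus strand) had an FPKM of 9.20 and 6.37 at 48 h, 16.7 and 11.3 at 72 h, and 13.5 and 8.74 in control. The knockdown libraries of each time overlapped control, and both 72 h libraries lay above both 48 h libraries. The log2 difference was −0.46 (SE 0.26) at 48 h and 0.31 (95% interval −0.30 to 0.92, limma adjusted p = 0.466) at 72 h relative to control. At 72 h it was 0.77 higher than at 48 h (95% interval 0.16 to 1.38, limma adjusted p = 0.127), which did not pass after adjustment. In each group the first library lay above the second. With the replicate number as a block, SLPI was called higher at 72 h than in control (limma adjusted p = 0.0489) and than at 48 h (0.0216). Whether the numbers pair the libraries is not known. Single libraries also moved the values fitted with 1 mean per group. The difference from control at 48 h was −0.17 without the first control library and −0.75 without the second, and −0.69 and −0.22 without the first and the second 48 h library. At 72 h it was 0.60 without the first control library and 0.02 without the second, and 0.05 and 0.57 without the first and the second 72 h library.

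TGM1 encodes transglutaminase 1, the membrane-bound enzyme that cross-links the envelope. It had 11 and 21 reads at 48 h and 18 and 21 reads at 72 h, against 8 and 11 reads in control, and its FPKM was at most 0.276. Both 72 h libraries and 1 of the 48 h libraries lay above control, the opposite direction to IVL. With voom on recovered reads and no filter, the log2 difference at 72 h was 0.84 (limma adjusted p = 0.340), so the change was not detectable at this depth.

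KRT13, the suprabasal keratin of mucosal epithelium, had 0 reads in both 48 h libraries and 2 and 5 reads at 72 h, against 1 and 0 reads in control. Its largest FPKM was 0.079. With voom and no filter the log2 difference at 72 h was 1.92 relative to control (limma adjusted p = 0.188) and 2.74 relative to 48 h (adjusted p = 0.0742). An antisense gene model, AC019349.1, overlaps KRT13 and was listed at 0 in every library.

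**Figure D2:**
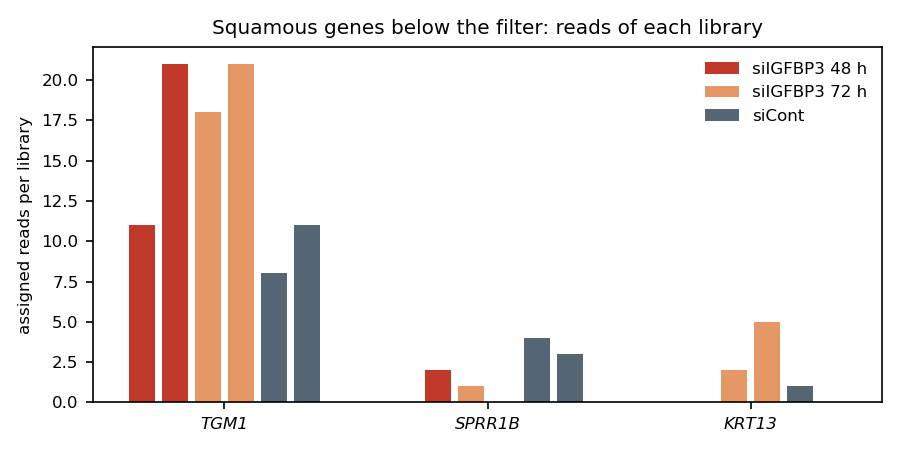
Assigned reads in each library for the 3 members below the filter that had any read, with bars from 0 in the order 48 h, 72 h and control and a missing bar for 0 reads. TGM1 has 8 to 21 reads, and SPRR1B and KRT13 have at most 5.

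Of the 10 members, 5 were tested, and of these 3 (IVL, SFN and MAB21L4) passed the limma threshold as lower at 48 h and 0 as higher, beside 16.5% lower and 8.38% higher among all genes tested. The rule used this comparison and chose MAB21L4 by its fall there, so the call of MAB21L4 was fixed in advance. No tested member was called higher at 48 h at an unadjusted p under 0.05 either, or with voom. These counts at 48 h are a description and nothing is read from them. At 72 h, with MAB21L4 left out, 4 of 9 members were tested, of which 1 (IVL) was called lower and 0 higher, beside 9.51% lower and 3.56% higher among all genes tested. At an unadjusted p under 0.05, limma gave 2 lower (IVL and SFN) and 0 higher, and voom called 0 higher. Between 72 h and 48 h, limma called 0 of the same 4 in either direction, beside 1.86% lower and 2.19% higher among all genes tested. At an unadjusted p under 0.05, 3 (IVL, SLPI and SFN) were higher and 0 lower, and voom called 1 higher (SFN) and 0 lower. The 48 h and 72 h comparisons share their control libraries, so likeness between them is not counted as a result.

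**Figure D3:**
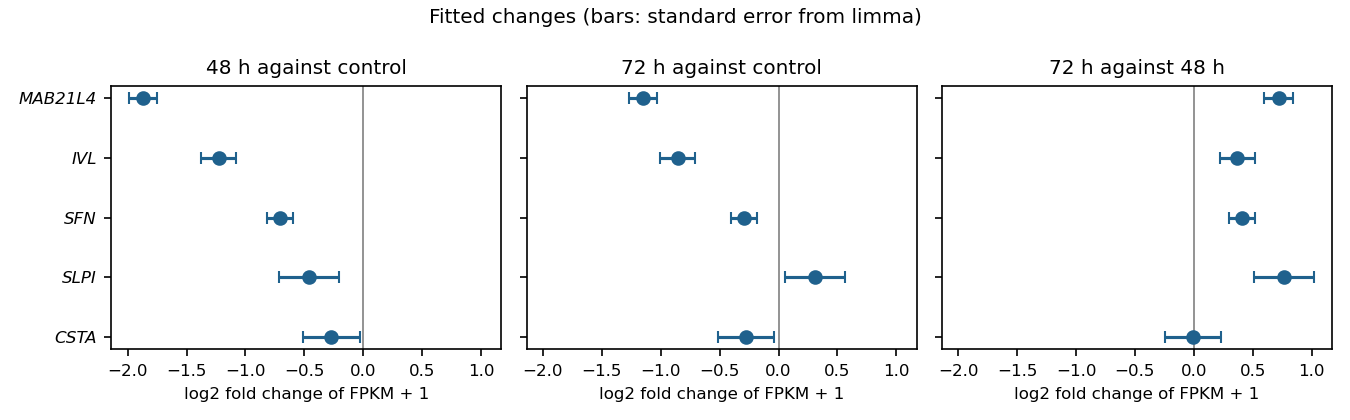
Log2 fold changes of FPKM + 1 for the 5 members above the filter, 1 panel per comparison, with bars of 1 standard error from limma. Values range from −1.87 for MAB21L4 at 48 h to 0.77 for SLPI at 72 h relative to 48 h, and that of CSTA between the times is −0.01.

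Other genes of cornification were read from 9 lists with 176 genes in the table, of which 56 passed the filter and 40 were listed at 0 in every library. The lists were chosen with earlier results of these data known, so the shares below are a description and not independent support. At 48 h, 26 of the 56 were lower, 46.4% against 16.5% of all genes, and 5 were higher, 8.93% against 8.38%. The median log2 change was −0.38, beside −0.04 over all genes tested. At 72 h, 13 were lower and 7 higher, 23.2% and 12.5% against 9.51% and 3.56% of all genes, with a median of −0.22 beside −0.05. Between 72 h and 48 h, 5 were lower and 5 higher, 8.93% each against 1.86% and 2.19% of all genes, with a median of 0.29 beside −0.01. These shares of all genes are also the background for the counts of each list below. The number lower at 48 h was 14 without the second 48 h library, and the number higher was 2 or 3 without any 1 of the 6 libraries. At 72 h, the lists gave 8 to 12 lower genes and 1 to 4 higher genes when 1 library was left out. Between the times they gave 0 to 4 lower and 0 to 7 higher. Each call of a list gene described below as lost without a library was also lost with no filter on low values, except those of SERPINB5 at 72 h and UGCG at 48 h.

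Precursors other than the members were almost unmeasured. Of 38 in the table, 18 were listed at 0 and only CRCT1 passed the filter, and the 6 SPRR2 genes had at most 2 reads in any library. CRCT1, a cysteine-rich gene of the epidermal differentiation complex, had an FPKM of 0.237 and 0.479 at 48 h and 0.742 and 0.710 at 72 h, against 6.35 and 1.28 in control. It reached 1 FPKM in the control libraries only, which let it pass the filter, so its own test is not given. It remains among the 56 genes behind the shares and medians above, and it is named here after its values were seen. None of the 4 corneodesmosome genes passed the filter.

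Of 15 regulators of keratinocyte differentiation tested, 9 were lower at 48 h and 0 higher, and the median log2 change was −0.61. At an unadjusted p under 0.05, limma gave 2 higher, and voom called 0 higher. At 72 h, 2 regulators were lower and 1 higher by limma, whereas voom on the recovered reads called 7 lower. GRHL3, a Grainyhead-like factor needed for the epidermal barrier in mice, had an FPKM of 0.455 and 0.406 at 48 h and 2.21 and 1.09 at 72 h, against 5.337 and 3.002 in control. All knockdown libraries were below both control libraries, and the log2 change was −1.82 (SE 0.26, limma adjusted p = 0.00559) at 48 h and −0.96 (SE 0.26, adjusted p = 0.0585) at 72 h.

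EHF, an ETS factor of epithelial cells, had an FPKM of 8.51 and 5.76 at 48 h and 10.4 and 12.5 at 72 h, against 20.5 and 15.8 in control. The log2 change was −1.25 (SE 0.19, limma adjusted p = 0.00638) at 48 h and −0.62 (SE 0.19, adjusted p = 0.0796) at 72 h. HES1, a target and effector of Notch signalling, had an FPKM of 9.15 and 10.9 at 48 h and 18.4 and 17.0 at 72 h, against 25.7 and 21.6 in control. It was lower at 48 h by a log2 change of −1.16 (SE 0.11, limma adjusted p = 0.00207) and was 0.76 higher at 72 h than at 48 h (adjusted p = 0.0295). For GRHL3, EHF and HES1 the 48 h calls held under every alternative that gave them a value, whereas the HES1 difference between the times was lost without any 1 of the 48 h or 72 h libraries, with adjusted p up to 0.129.

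OVOL1, a zinc finger factor of suprabasal cells, had an FPKM of 0.806 and 1.21 at 48 h and 2.13 and 1.08 at 72 h, against 6.96 and 2.79 in control. The control libraries differed from each other more than the second control library differed from the knockdown libraries. The log2 change at 48 h was −1.46 (SE 0.35, limma adjusted p = 0.0270), and the call was lost without either 48 h library or without the first control library, with an adjusted p of up to 0.119. ZNF750, another epidermal differentiation factor, was below the filter and is named after its values were seen. It had 1 read in each 48 h library and 17 and 10 reads at 72 h, against 78 and 35 reads in control.

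The other regulators named moved in both directions. CEBPA, which promotes exit from the cell cycle, had an FPKM of 2.18 and 2.25 at 48 h and 3.48 and 3.37 at 72 h, against 5.78 and 5.63 in control. Its log2 change was −1.06 (SE 0.07, limma adjusted p = 0.0007) at 48 h and −0.60 (SE 0.07, adjusted p = 0.00577) at 72 h. KLF4, a barrier factor, had an FPKM of 2.29 and 2.16 at 48 h and 0.728 and 0.974 at 72 h, against 1.69 and 1.38 in control, so that it lay above control at 48 h and below it at 72 h. ELF3, an ETS factor expressed late in differentiation, had an FPKM of 5.98 and 3.67 at 48 h and 5.80 and 10.4 at 72 h, against 3.12 and 3.30 in control. At 72 h the log2 change was −0.45 for KLF4 (limma adjusted p = 0.0442) and 1.06 for ELF3 (adjusted p = 0.0459). Both calls were lost with the replicate number as a block, with unnamed gene models included and with the compared groups alone. The call of KLF4 was also lost with quantile normalization, and that of ELF3 with a pseudocount of 5 or without the variance trend. Leaving out single libraries ended both calls, with adjusted p of up to 0.179 for KLF4 without any 1 of the 6 libraries and 0.155 for ELF3 without any library but the first at 72 h.

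**Figure D4:**
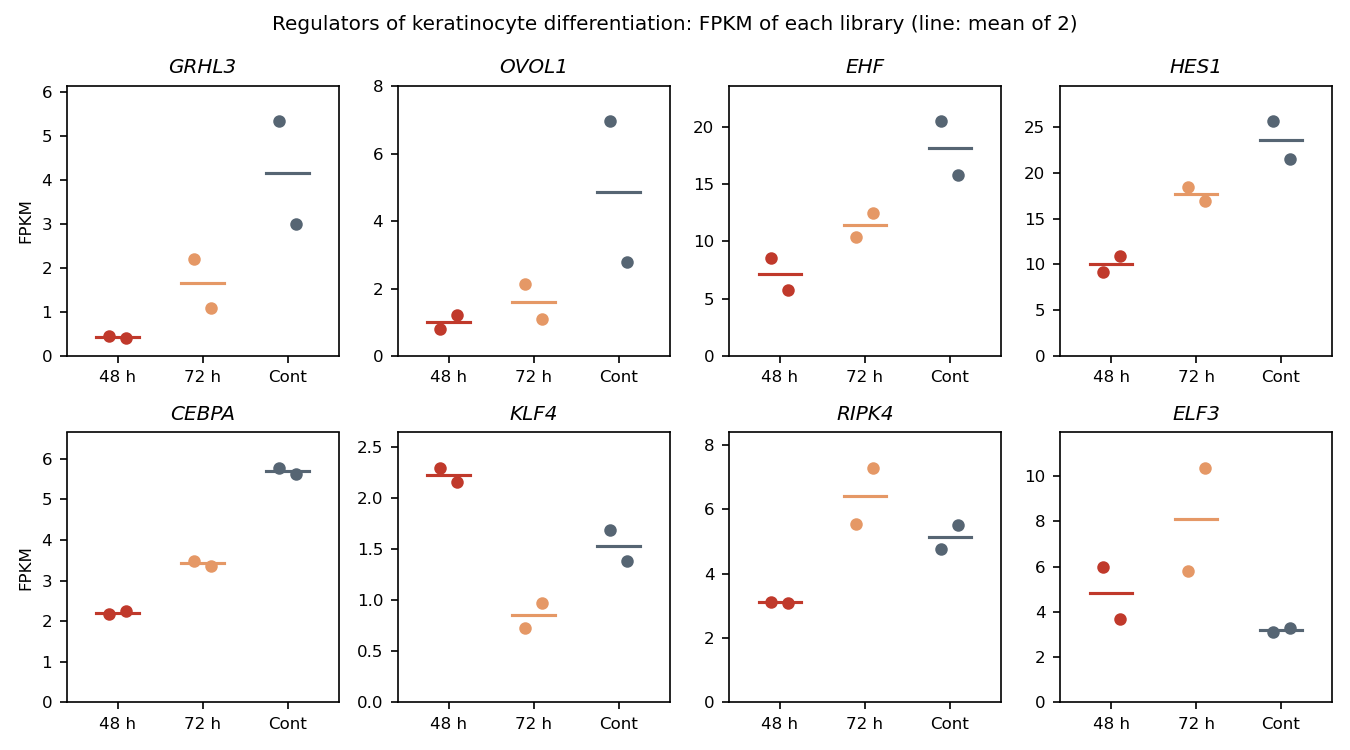
FPKM of each library for 8 regulators of keratinocyte differentiation, with 1 panel per gene and its own axis from 0. Points are libraries at 48 h, at 72 h and in control, and lines are the means of 2. GRHL3, OVOL1, EHF, HES1 and CEBPA are lowest at 48 h, whereas KLF4 is lowest at 72 h and ELF3 in control.

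Among enzymes, 4 of 8 cross-linking enzymes and proteases were lower at 48 h and 1 was higher. At 72 h, 1 was lower and 2 were higher. KLK5, a kallikrein protease of desquamation, had an FPKM of 22.4 and 25.5 at 48 h and 37.5 and 61.0 at 72 h, against 60.3 and 51.6 in control. It was lower at 48 h by a log2 change of −1.19 (SE 0.21, limma adjusted p = 0.0108), a call lost without either 48 h library or the first control library (adjusted p up to 0.0603). TMPRSS11E, a membrane serine protease, was lower at both times, with an FPKM of 5.62 and 6.96 at 48 h and 4.84 and 5.14 at 72 h, against 12.4 and 10.3 in control. Its log2 changes were −0.77 (limma adjusted p = 0.00688) and −1.04 (adjusted p = 0.00534). CTSC, the lysosomal protease cathepsin C, went the other way at 48 h, with 12.2 and 11.4 FPKM against 6.46 and 7.32 in control and a log2 change of 0.70 (limma adjusted p = 0.00327).

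Of the 4 protease inhibitors tested beside CSTA and SLPI, 3 were lower at 48 h and 2 at 72 h, with 0 higher at either time by limma, also at an unadjusted p under 0.05, and by voom. CST6, which encodes cystatin M/E of the upper epidermis, had an FPKM of 36.5 and 47.7 at 48 h and 41.6 and 43.9 at 72 h, against 83.3 and 96.5 in control. Its log2 change was −1.08 (limma adjusted p = 0.00358) at 48 h and −1.05 (adjusted p = 0.00713) at 72 h, and the call at 72 h was lost when no filter was applied (adjusted p = 0.0551). SERPINB5, the gene of maspin, had an FPKM of 13.7 and 14.3 at 48 h and 17.4 and 16.8 at 72 h, against 29.02 and 24.96 in control. The log2 change was −0.90 (limma adjusted p = 0.00193) at 48 h and −0.63 (adjusted p = 0.00876) at 72 h, and the call at 72 h was lost without the second 72 h library (adjusted p = 0.0511).

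In the list of other upper epidermal and mucosal genes, 3 of 9 were lower at 48 h. At 72 h, 3 were lower and 1 was higher. CALML3, a calmodulin-like protein of differentiating epithelial cells, had an FPKM of 2.852 and 2.441 at 48 h and 2.997 and 5.553 at 72 h, against 11.995 and 12.45 in control. The log2 change was −1.86 (limma adjusted p = 0.00294) at 48 h and −1.37 (adjusted p = 0.0117) at 72 h, and the call at 72 h was lost without either control library (adjusted p up to 0.0584) and with no filter (0.0796). Of 2 suprabasal keratins tested, KRT80 was lower at both times, with log2 changes of −0.39 (limma adjusted p = 0.0226) and −0.54 (adjusted p = 0.0133). Without the second control library neither KRT80 call held, and each was also lost without either library of its own time (adjusted p up to 0.108 at 48 h and 0.0741 at 72 h).

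Plakins and other envelope-associated proteins were mixed. At 48 h, 3 of 7 were lower and 1 was higher, and at 72 h limma called 0 lower, also at an unadjusted p under 0.05 and with voom, and 2 higher. CLIC3, a chloride channel-like protein, had an FPKM of 0.586 and 0.659 at 48 h and 5.05 and 5.40 at 72 h, against 3.03 and 1.36 in control. It was thus below control at 48 h and above it at 72 h, and the log2 difference between the times was 1.94 (SE 0.23, limma adjusted p = 0.0161), lost without either 48 h library or the second 72 h library (adjusted p up to 0.106). SCEL, which encodes the envelope protein sciellin, was higher at 72 h, with 10.7 and 12.4 FPKM against 6.88 and 6.75 in control, and a log2 change of 0.68 (limma adjusted p = 0.0254). Leaving out either 72 h or either control library ended that call (adjusted p up to 0.118).

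Of 10 barrier lipid genes, 3 fell and 3 rose at 48 h, and 4 fell and 1 rose at 72 h. UGCG, the glucosylceramide synthase gene, was higher at both times, with an FPKM of 48.0 and 46.0 at 48 h and 54.5 and 55.1 at 72 h, against 36.3 and 35.2 in control. The log2 changes were 0.38 (limma adjusted p = 0.00949) at 48 h, lost without the first 48 h library (adjusted p = 0.0549), and 0.60 (adjusted p = 0.00478) at 72 h. NIPAL4, a gene of inherited ichthyosis, had an FPKM of 3.223 and 2.999 at 48 h and 1.54 and 1.84 at 72 h, against 3.83 and 3.44 in control. It was lower at 72 h by a log2 change of −0.78 (limma adjusted p = 0.00616).

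**Figure D5:**
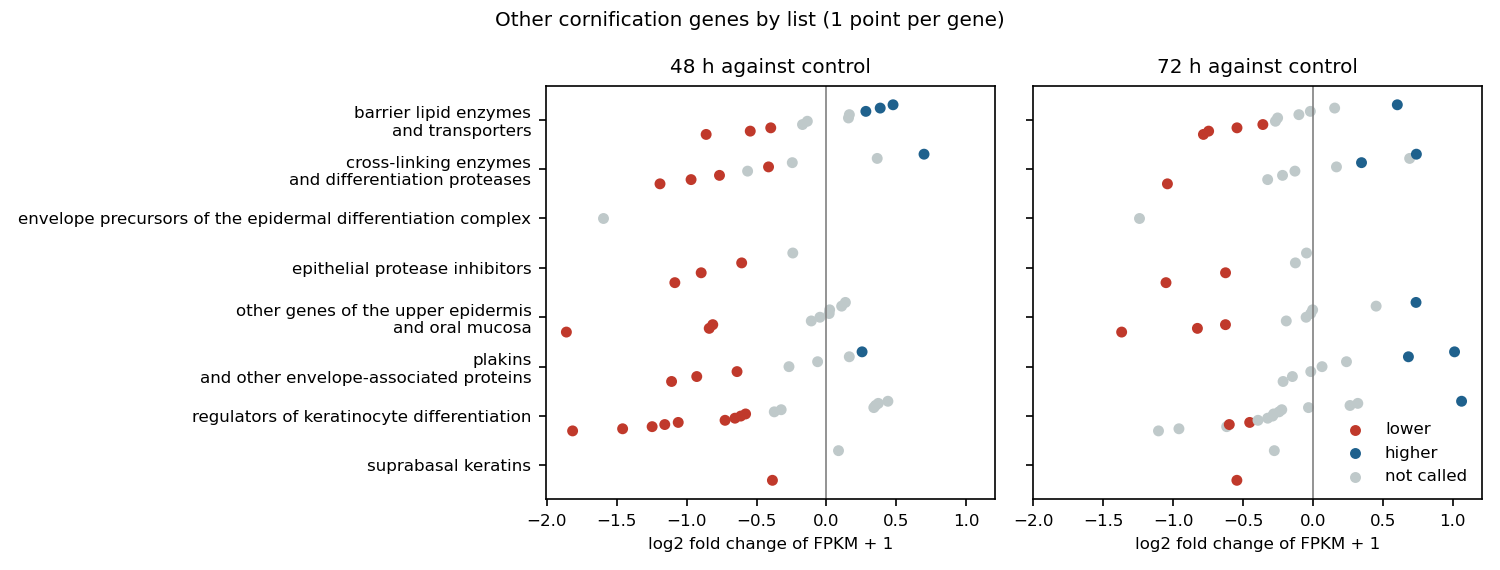
Log2 fold changes of FPKM + 1 for the 56 other cornification genes above the filter, by list, at 48 h and at 72 h against control. Each point is a gene, in red where it was called lower, in blue where it was called higher and in grey otherwise. At 48 h 26 points are red and 5 blue, and at 72 h 13 are red and 7 blue.

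The genes whose pattern over the 6 libraries was most like those of IVL and MAB21L4 were sought among 708 genes whose log2 values ranged over at least 1. For IVL they were SERPINB7 (Pearson r = 0.991), TNFRSF10D (0.987), AC092112.1 (0.979), ATP6V1D (0.978) and CLDN9 (0.978). For MAB21L4 they were SEC24D (0.998), DSC3 (0.998), GALNT7 (0.997), IGFBP3 (0.997) and MAGT1 (0.995). IVL and MAB21L4 correlated with each other at 0.965. With 3 groups of 2 libraries, such values mostly describe the order of the groups, and no test is attached. SERPINB7 had an FPKM of 1.02 and 1.56 at 48 h and 1.93 and 1.96 at 72 h, against 3.77 and 3.38 in control. DSC3, a desmocollin gene, had 0.383 and 0.319 at 48 h and 0.703 and 1.06 at 72 h, against 2.48 and 2.27 in control, the same order of groups as MAB21L4.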

How the data were processed

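Total RNA was extracted with a column kit and sequenced on a DNBSEQ instrument. The authors deposited FPKM for 66351 gene models. Reads were aligned with HISAT2 2.0.1. The submitters' processing notes also name GRCh38, DESeq2 and HTSeq 0.6.1, with no role for any of them. The annotation release and strand setting are not given in the sources used here. FPKM weights reads by model length, which exceeds the reference transcript for some members.

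Low FPKM values were whole multiples of 1 read (100.0% within 0.1 read), which gave 17430648 to 21579852 assigned reads per library. The 6831 unnamed models were left out. Genes reaching 1 FPKM in 2 or more libraries were tested as log2(FPKM + 1) in limma 3.58.1 (R 4.3.3) with a variance trend, 1 mean per group and Benjamini-Hochberg adjustment over 11214 genes, with calls at an adjusted p under 0.05. Scripts were tested on simulated data. Tables and plots used Python 3.11.15, numpy 2.4.6, pandas 2.3.3 and matplotlib 3.10.9.

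The members and lists were chosen with earlier results of these data known. Genes named were the members, IGFBP3, called list genes with non-overlapping groups (up to 4 per direction and list in each comparison) and the 5 most like IVL and MAB21L4; values of a list gene in the other comparisons stand beside them. Alternatives were other pseudocounts, filters, TPM, quantile normalization, no trend, unnamed models included, the compared groups alone, a replicate block, voom and leaving out each library.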

Additional observations from a re-analysis of the deposited data

Results flagged for a closer look

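For 11 genes limma called a difference between the 72 h and the 48 h knockdown libraries. Without a control for each time, this difference may also hold longer culture and renewed medium. Apart from IGFBP3 these are other cornification genes, of which 5 of 56 were lower and 5 higher. That is 8.93% each, beside 1.86% lower and 2.19% higher among all genes tested. IGFBP3 itself was 1.38 higher on the log2 scale at 72 h (adjusted p = 0.0327). CLIC3 was higher by 1.94 (limma adjusted p = 0.0161), KLK13 by 0.98 (adjusted p = 0.0327), RIPK4 by 0.84, HES1 by 0.76 and CEBPA by 0.46 (limma adjusted p = 0.0295 for each of these 3). KLK13 is a kallikrein protease, and RIPK4 is a kinase needed for epidermal differentiation. KLF4 changed by −0.80 (limma adjusted p = 0.0264). The other 4 genes act in lipid handling. NIPAL4 changed by −0.61 (limma adjusted p = 0.0295), the fatty acid transporter gene SLC27A4 by −0.52 (adjusted p = 0.0186), the fatty acid binding protein gene FABP5 by −0.50 (adjusted p = 0.0357) and the lipase cofactor gene ABHD5 by −0.43 (adjusted p = 0.0401). Each of the 10 cornification genes lost its call without at least 3 of the 6 libraries taken singly, both 48 h libraries among them in every case. Among the squamous differentiation genes tested, limma on FPKM with 1 mean per group called none between the times, whereas SFN was called with voom and SLPI with the replicate block.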

How the results depend on the processing

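IGFBP3 kept its direction and call against control under all 18 alternatives. Counts are given as called genes, and those of the members at 48 h are a description only, since the rule used that comparison. Members: lower at 48 h, 3, but 1 with an FPKM minimum of 5 and 3 to 4 with a library left out; lower at 72 h, 1, but 0 with no filter or a minimum of 5, 2 with voom and no filter (chosen after the data had been seen), and 0 to 1 with a library left out; higher between the times, 0, but 1 with voom, with or without the filter. Other cornification genes at 48 h: 5 higher, but 3 with no filter or the compared groups alone and 2 to 3 with a library left out, and 26 lower, but 14 to 27 with a library left out. At 72 h: 13 lower, but 7 with no filter, 8 with a minimum of 5, 23 with voom and no filter and 8 to 12 with a library left out, and 7 higher, but 1 with no filter, 4 with unnamed models, 3 with the compared groups alone and 1 to 4 with a library left out. Between the times: 5 lower, but 0 with no filter, 9 with voom, 8 with voom and no filter, 2 with unnamed models and 0 to 4 with a library left out, and 5 higher, but 0 with no filter, 9 with a minimum of 5, 17 with voom, 16 with voom and no filter, 1 with unnamed models and 0 to 7 with a library left out. No filter and the minimum of 5 change which genes are tested, and for the other settings the cause was not tested.

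The CSTA difference between the times, −0.01, turned to 0.01 with quantile normalization (0.0051) and voom (0.0097, and 0.0109 with no filter), to 0.40 without the first 48 h library (and −0.42 without the second) and to 0.10 without the second 72 h library.

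Deviations of same-numbered libraries over the tested genes correlated at −0.123 (48 h and 72 h), −0.003 (48 h and control) and 0.159 (72 h and control). These values show no pairing common to most genes, but they cannot exclude a replicate effect on single genes. SLPI was higher in the first library of each group. With the replicate number as a block, 1 member (SLPI) was called higher at 72 h against control (limma adjusted p = 0.0489) and between the times (0.0216), and 3 other cornification genes were lower between the times. A lone library left in its group was assumed to vary like the other groups. Depth limits TGM1, SPRR1B and KRT13, which had at most 21 reads. Few reads also lie behind the 48 h values of MAB21L4 (6 and 8) and IVL (15 and 39). Over the alternatives, the log2 difference from control at 48 h ran from −4.57 to −0.66 for MAB21L4 and from −2.18 to −0.47 for IVL.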
